A study of Rattus norvegicus with 3 samples.

Results

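Keratins and junction proteins of simple epithelia were measured in rat adrenal medulla through 8 genes: Krt7, Krt8, Krt18, Krt19, Epcam, Cldn3, Cldn4 and Cldn7. Each gene was read by 1 probe set annotated to it alone, so 8 of the 14217 genes with a probe set of 1 symbol are described. The genes were chosen from intensities on these same 3 arrays, with Krt19, which differed between them, as the gene that the others are set beside. All values of the 8 are therefore given as a description, and no test supports them.

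Keratins are the intermediate filament proteins of epithelial cells. A filament is built from pairs of 1 type I keratin, such as Krt18 or Krt19, and 1 type II keratin, such as Krt7 or Krt8, and these members are typical of single-layered epithelia. Epcam encodes an adhesion protein of the epithelial cell surface, and the claudins form the strands of tight junctions that close the space between neighbouring cells. The adrenal medulla consists mainly of chromaffin cells, which come from the neural crest and release adrenaline and noradrenaline. In the rat RefSeq annotation Krt8 lies next to Krt18, Cldn3 next to Cldn4, and Krt19 next to Krt15 and Krt9.

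The study placed rats in the cold and took adrenal medulla RNA after 1 day (2 arrays, replicates a and b) or 7 days (1 array). Sample titles also carry the words Multiple Organs, taken here for the name of a project, which is an assumption. Strain, age, sex and temperature are not given in the labels, nor whether the replicates were separate animals or pools, so the spread between a and b may be technical. No array from rats outside the cold was analysed here. Each array gave 1 linear intensity for each of 31099 probe sets, and with so few arrays each value has low precision. Below, differences are on the scale of log2(intensity + 16), where 1 is 2-fold. A probe set was "kept" when its mean over the arrays reached the median of all gene probe sets, which is an intensity of 759, and 15521 were kept.

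The 1-day arrays did not resemble each other, which touches every value below. Across gene probe sets the Spearman correlation was 0.664 for arrays a and b, and 0.939 for array b with the array from 7 days. The lower quartile of intensity was 557 on array a, 161 on array b and 233 on the 7-day array. In that order, beta-actin had 3′ to 5′ ratios of 231, 6.11 and 8.87. Dim genes thus sat higher on array a, and results are given with and without it. Chromaffin markers were mostly bright: all 9, among them Th and Dbh, were kept, with a median percentile within the array of 99.5 to 99.9. All 6 measured adrenal cortex markers, such as Star and Cyp11a1, were kept too, at 99.5 to 99.9, so cortex transcripts were abundant beside those of the medulla. Single markers differed on array a. Chromaffin Slc18a1 read 1390 there (percentile 45.2) and 18040 on array b, and cortex Cyp11b1 read 2012 (59.8) and 33603. Others, such as Dbh (543430 and 188289), were higher on array a. The markers thus show adrenal tissue and cannot tell a dissected medulla from whole gland. In such bulk RNA, fewer cells of a type and less RNA per cell cannot be told apart.

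Krt19, a type I keratin of ducts and other simple epithelia, was the member that set 1-day array b apart. Its intensity at 1 day was 674 (array a) and 2297 (array b), and at 7 days it was 463. Only array b was high, and the 7-day value lay nearer to array a than to array b. The log2 difference of the 7-day array from array b was -2.27, and that from array a was -0.53. The 1-day mean was 10.30 ± 1.23 (SD, n = 2, log2), and the difference of the 7-day array from it was -1.40 ± 2.13 (SE from limma, which takes the spread from an intensity trend). With 1 array at 7 days this SE cannot weigh the difference.

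The order of array b against the others held under each scaling tried, and that of the 7-day array and array a did not. Krt19 on the 7-day array relative to array b was -1.80 with quantile normalisation and -2.45 after centring each array on its median. Relative to array a it turned from -0.53 to 0.85 and 0.68 in these settings. In percentiles of its own array, Krt19 stood at 27.7 on array a, 72.5 on array b and 41.4 on the 7-day array. After centring, the median difference over the kept probe sets was -0.18 against array b and 1.12 against array a, where it had been 0.00 and -0.10.

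Krt8, the type II keratin of simple epithelia, read lowest at 7 days. Its intensity was 3994 on array a, 1642 on array b and 1166 on the 7-day array. The 7-day array had log2 differences of -1.76 from array a and -0.49 from array b, both below 0 under each scaling. Krt18, the usual filament partner of Krt8, was likewise highest on array a, but as scaled it was not lowest at 7 days. Krt18 read 2790 on array a, 48.5 on array b and 53.7 on the 7-day array. Array a alone was high, 5.44 above array b, and the other arrays put Krt18 at percentiles 12.9 and 9.50, among the dimmest probe sets. Its difference of 0.11 between the 7-day array and array b turned to -0.35 with quantile normalisation and -0.07 with centring. In these settings Krt18, like Krt8, was lowest at 7 days.

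Krt7, a type II keratin of ducts and glands, had a similar shape to Krt18. It read 1773 on array a, 77.9 on array b and 129 on the 7-day array. The 7-day array stood at 0.63 relative to array b and at -3.62 relative to array a. Of the 4 keratin members, 3 were thus highest on array a and Krt19 on array b. After centring Krt8 was slightly lower on array a than on array b (-0.12), so its order on the 1-day arrays rested on the scaling.

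**Figure D1:**
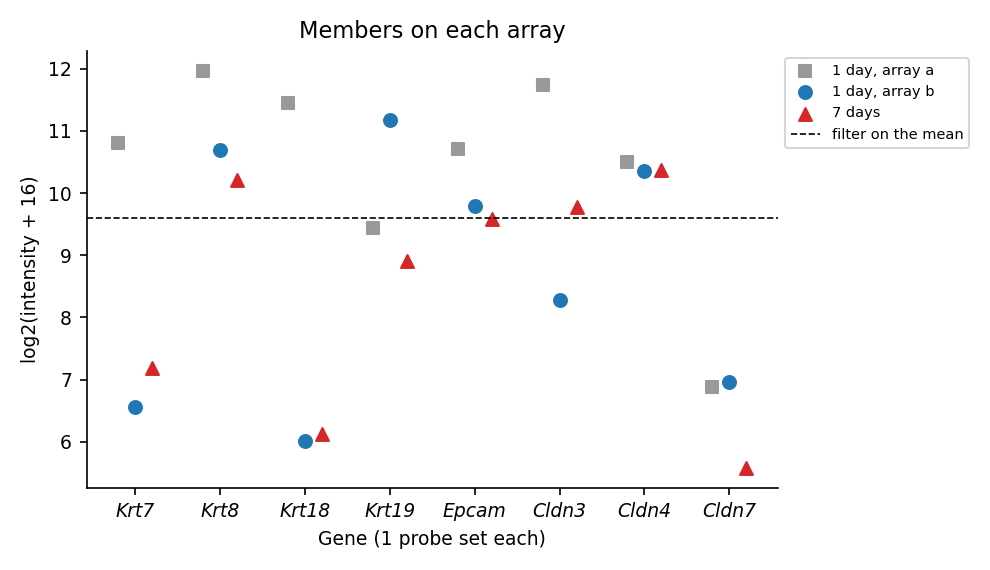
Level of each member as log2(intensity + 16) on the 3 arrays (grey squares 1 day array a, blue circles 1 day array b, red triangles 7 days), with a dashed line at the filter on the mean, 9.60. Levels can be compared within a gene and not between probe sets; Krt19 is highest on array b (11.18), Krt7, Krt18 and Cldn3 are highest on array a, and Cldn4 lies within 10.36 and 10.51.

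Epcam, the surface adhesion gene, read 1661 on array a, 874 on array b and 752 on the 7-day array. The 7-day array was lowest, at -0.21 relative to array b and -1.13 relative to array a. Against array b it stayed below 0 with quantile normalisation (-0.22) and centring (-0.39), but against array a it became 0.03 and 0.08.

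The claudins took 3 different shapes. Cldn3 read 3384 on array a, 294 on array b and 860 on the 7-day array, so that the 7-day array lay between the 1-day arrays. It stood 1.50 above array b, or 0.98 with quantile normalisation and 1.32 with centring, and -1.96 relative to array a. Cldn4, its neighbour on the genome, had the smallest range of the 8 as scaled, with 1438 on array a, 1300 on array b and 1315 on the 7-day array. Its difference between the 7-day array and array b was 0.02 (-0.17 with centring), while that from array a went from -0.13 to 0.93 with quantile normalisation and 1.08 with centring. Cldn7 read 102, 109 and 31.7 in the same order, at percentiles 3.74, 19.7 and 4.97. The 7-day array stood at -1.30 relative to array a and at -1.38 relative to array b, but the first turned to 0.17 with quantile normalisation.

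**Figure D2:**
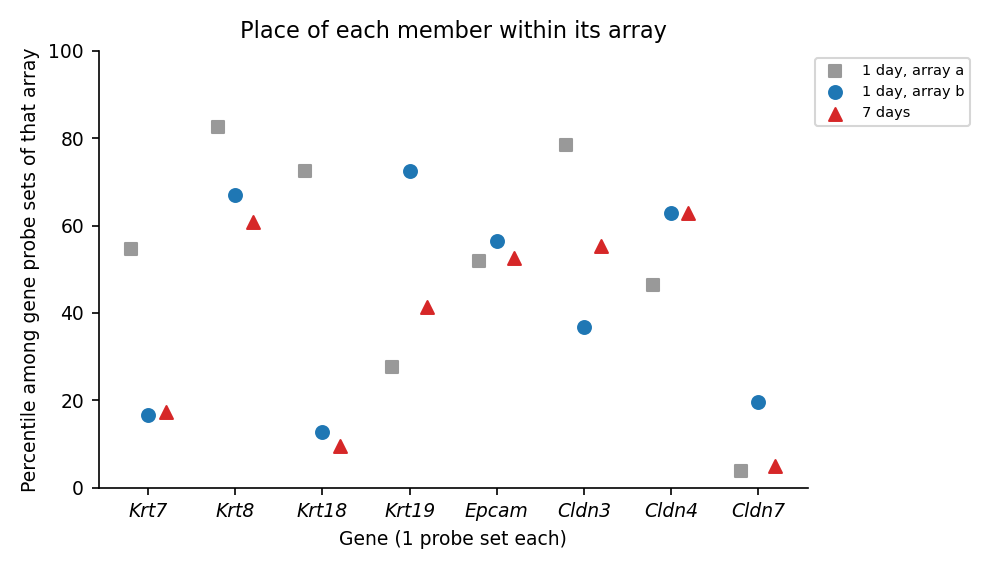
Percentile of each member among the 31042 gene probe sets of its own array (same symbols as for the levels), which does not depend on how arrays were scaled. Krt19 stands at 72.5 on 1-day array b against 27.7 and 41.4 on the others, Krt18 drops from 72.5 on array a to 12.9 and 9.50, and Cldn4 has nearly the same place at 1 day on array b and at 7 days (62.9 and 63.0).

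How these differences compared with those of other probe sets depended on brightness. For each member, the spread of the difference between the 7-day array and array b was taken over the probe sets whose mean log2 level on these arrays lay within 0.25 of its own. Around Krt19 that SD was 0.45 over 1870 probe sets, of which 1.23% were at least 2-fold lower at 7 days. Around Krt8, Cldn4 and Epcam it was 0.39, 0.39 and 0.50, which the difference of Krt8 exceeded and those of Cldn4 and Epcam did not. Around Cldn3 it was 0.65, and 10.5% of like probe sets were at least 2-fold higher at 7 days. Around Krt7, Krt18 and Cldn7 it was 1.94, 1.52 and 1.76, larger than the difference of each of these members. For Cldn7, 24.3% of probe sets as dim were at least 2-fold lower. These spreads are over probe sets on the same arrays and not over replicates, and the members were chosen with their values known. They describe the place of each member and cannot weigh its difference.

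**Figure D3:**
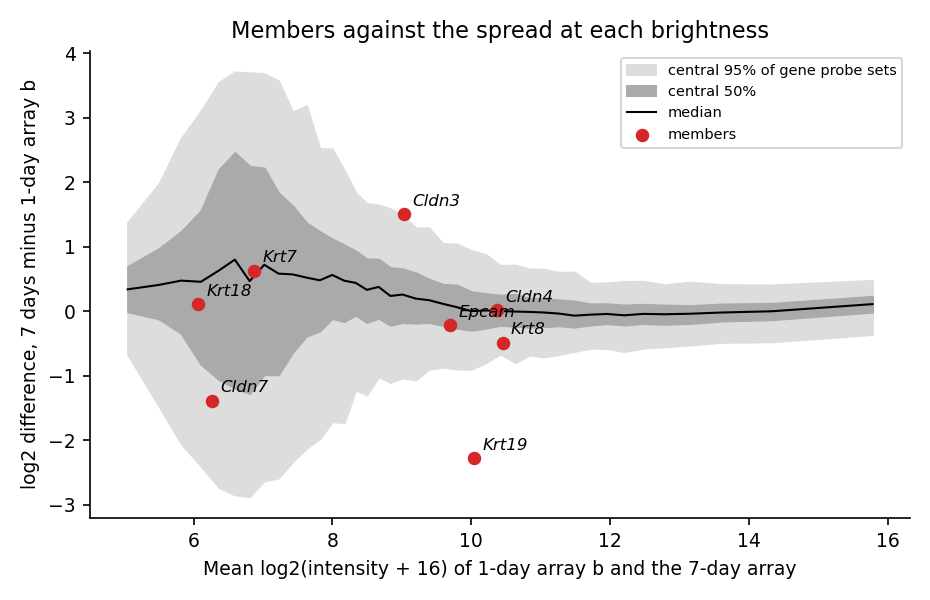
Difference of the 7-day array from 1-day array b (log2, vertical) against the mean log2 level on those arrays (horizontal) for the 8 members (red), over the median (line), central 50% (dark grey) and central 95% (light grey) of gene probe sets in 40 equal groups of brightness. Krt19 (-2.27) lies below the 95% band, Cldn3 (1.50) lies near its upper edge, and Krt7, Krt18 and Cldn7 lie in the wide part at the dim end. The bands are spreads over probe sets and not over replicates.

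Set beside the whole table, Krt19 was among the lowest against array b. Only 4 of 15521 kept probe sets had a difference as low as that of Krt19, itself included, among them one of Numbl. Of the 8 members, 5 were kept (Krt8, Krt19, Epcam, Cldn3 and Cldn4), and Cldn3 passed only through its level on array a, since it failed a filter on the other arrays. Krt19 lay under the filter level of 9.60 on array a (9.43) and the 7-day array (8.90). It passed only through array b (11.18), where it was high, so its rank among kept probe sets rests on that value. At least 2-fold below array b were Krt19, against 0.561% of kept probe sets, and Cldn7, against 12.7% of those not kept. At least 2-fold above array b was Cldn3, against 1.84% of kept probe sets and 27.9% of those not kept. Since the members were chosen with these differences known, nothing is read from these shares.

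With both 1-day arrays used, the question was which genes differed between 7 days and 1 day. Limma called 0% of the 15521 kept probe sets at an adjusted p under 0.05, with 70 at an unadjusted p under 0.05 and a lowest adjusted p of 1.00. The fit had 1 residual degree of freedom and gave the lone 7-day array the spread of the 1-day pair. By size, Cldn7 was the 1 member at least 2-fold below both 1-day arrays, which 0.341% of kept and 11.1% of other probe sets were, and 0 members were at least 2-fold above both, against 0.0387%. Cldn7 was not kept, and with a pseudocount of 64 its difference from array b was -0.85, short of 2-fold. Below both by any amount were 4 members, Krt8, Krt19, Epcam and Cldn7, against 25.3% of kept and 29.8% of other probe sets. That count became 2 with quantile normalisation (Krt8 and Krt18) and 3 with centring (Krt8, Krt18 and Cldn7).

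The shapes of the members across the arrays split in the same way. Array b was at least 2-fold above both other arrays for Krt19 alone among the 8. That shape was found in 0.0838% of kept probe sets, 13 in number, and in 0.506% of all measured genes, kept or not. Since Krt19 was kept only through array b, nothing is read from the kept share. Array a was at least 2-fold above both for Krt7, Krt8, Krt18 and Cldn3, a shape shared by 20.1% of kept and 59.3% of other probe sets. With centring Krt8 and Cldn3 lost that shape, and with centring or quantile normalisation the dim Cldn7 joined Krt19 in having array b at least 2-fold above both others. The part of array quality in these values was not tested.

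Other epithelial genes, listed by role, read below array b at 7 days about as often as above it. Of 97 listed, 80 had a probe set and 30 were kept, so 62.5% of the measured ones were not kept, against 34.6% of all genes. Among the 30, 16 were lower and 14 higher at 7 days than on array b, with a median of -0.02, where all 9292 kept genes had 51.4% lower and a median of -0.01. Of the 30, 0 were at least 2-fold apart from array b in either direction, where 0.430% of kept genes were 2-fold lower and 0.926% higher, so a count of 0 is near the background. With quantile normalisation 15 of the 30 were lower and with centring 23, where 75.5% of all genes were lower. Below both 1-day arrays were 6 of the 30, against 24.9% of genes, a count of 5 with quantile normalisation and of 2 with centring of the same probe sets. Among all 80, 6 were at least 2-fold lower than array b (7.50%, against 4.76% of all measured genes) and 16 at least 2-fold higher (20%, against 10.1%), and 0 of these had been kept. Of all probe sets not kept, 12.7% were at least 2-fold lower and 27.9% higher. Since more of the listed genes than of all genes were not kept, no excess is read from these shares.

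Other keratins mostly had low means. On array a alone some ranked high, with Krt1, Krt23 and Krt17 at percentiles 78.3, 72.7 and 72.2 of that array, but on array b they read 329, 200 and 410. Of 11 measured, 1 was kept, Krt10, a type I keratin of stratified epithelia, which read 2938 on array a, 1024 on array b and 955 on the 7-day array (-0.10 from array b). Krt5 and Krt14, the basal pair of the epidermis, read 180 and 64.5 on array b and 152 and 247 on the 7-day array. They lay on opposite sides of 0, at -0.22 and 1.71. Krt15, beside Krt19 on the genome, read 267 on array a, 104 on array b and 229 on the 7-day array, with array b the lowest where Krt19 had it highest.

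Tight and adherens junction genes had 9 of 22 measured members kept, 3 lower and 6 higher than array b (median 0.03). Those farthest from array b were Pard6b, a cell polarity gene (0.66, kept only through its level on array a), Cldn12 (-0.41), Ctnnb1, which encodes beta-catenin (0.26), and Tjp1, which encodes the junction scaffold ZO-1 (-0.23). Other probe sets of Ctnnb1 stood at 0.12 and -0.10 (kept) and -2.17 (not kept). Tjp1 read 453 on array a, 5670 on array b and 4824 on the 7-day array, so it shared the low array a of Krt19 and not its low 7-day array. A second probe set of Tjp1, not kept, read 807, 167 and 129. F11r, a junctional adhesion molecule, was bright on all arrays (35193, 48779 and 53486). Cdh1, which encodes E-cadherin, the defining adherens junction protein of epithelia, was not kept and read 1140, 55.2 and 185 on its brighter probe set. Cgn, which encodes cingulin of the tight junction, read 617, 222 and 317 and was not kept either. Ocln, which encodes the tight junction protein occludin, was the only one of the 80 with array b at least 2-fold above both others (1.25%, against 0.506% of all measured genes), at 60.6, 203 and 24.4. Its second probe set read 70.2, 34.8 and 46.0 and did not have that shape.

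Desmosome and hemidesmosome genes had 6 of 13 members kept, 3 lower and 3 higher than array b (median -0.16). Desmosomes anchor keratin filaments to the cell membrane. Dsp, which encodes desmoplakin, the linker of keratin filaments, read 4869 on array a, 29129 on array b and 32048 on the 7-day array. It was thus close on the latter arrays, at 0.14 (-0.04 with centring). Pkp2 (-0.55), Dsc2 (-0.51) and Jup (-0.41), all desmosome genes, were lower at 7 days than on array b, and Itga6, an integrin of hemidesmosomes, was at 0.34. Against array a these stood at -1.89, 0.01, 3.02 and -0.59, in no shared direction.

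Of the epithelial transcription and splicing factors, 3 of 10 measured were kept. Klf4, Grhl1 and Klf5 stood at -0.29, -0.16 and 0.00 relative to array b. Other probe sets of Klf5 differed, at 0.73 and -0.31 (kept) and 0.24 (not kept). Klf4 read 3268, 3459 and 2832, and Grhl1 read 3809, 3716 and 3318, a narrow range as scaled on arrays that otherwise differed. With centring the 7-day array stood 1.01 above array a for each of them, and with quantile normalisation at -0.09 and -0.21. Esrp1, a splicing factor of epithelial cells, read 1043 on array a but 44.5 and 64.1 on the other arrays. No probe set was annotated to Grhl2 alone.

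Of the surface, protease and trafficking genes, 11 of 24 were kept, 6 lower and 5 higher than array b (median -0.09). St14, a membrane protease of epithelia, was highest at 0.70. Tspan8, a tetraspanin, read 1624 on array a, 1807 on array b and 1150 on the 7-day array (-0.64). Lgals3, which encodes galectin-3, and Ezr, which encodes ezrin, stood at -0.53 and -0.40. Spint2, a protease inhibitor of epithelia, read 9877, 23316 and 26774, and Muc1, a mucin of the apical surface, was not kept and read 4098, 192 and 311, high on array a alone. Intermediate filament and contractile genes of other cells stood closer to 0 than Krt19 did, with Vim, which encodes vimentin, at -0.42, Des at -0.05, Acta2 at -0.17 and Tagln at -0.35.

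**Figure D4:**
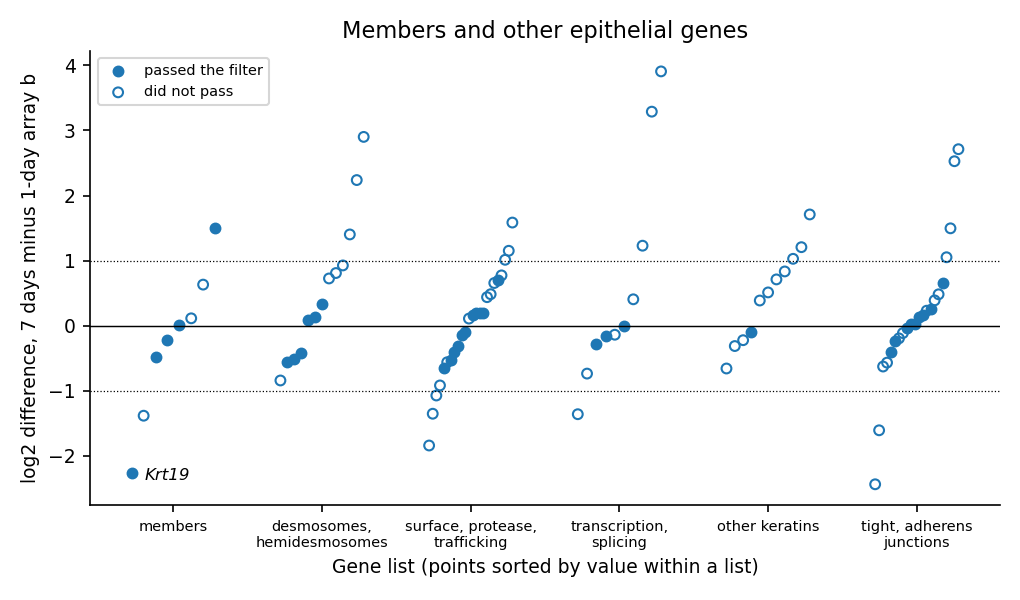
Difference of the 7-day array from 1-day array b (log2) for the 8 members and for 5 lists of other epithelial genes, 1 point a gene, sorted within each list, with filled points for genes that passed the filter on level. Dotted lines mark 2-fold. Krt19 (-2.27) and Cldn3 (1.50) are the only filled points beyond them, and the other points beyond them are of genes that did not pass. Krt19 passed only through its level on 1-day array b, and Cldn3 only through array a.

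Likeness to Krt19 was measured as the distance between log2 values, each centred on its own mean over the 3 arrays. Over 12053 other kept probe sets of 1 symbol, the nearest were Plxna4 (0.56), Mybpc1 (0.56), Pak1 (0.65), Icam1 (0.71), Nedd4 (0.77), Simc1 (0.82), Gng2 (0.83) and Ppm1h (0.85). None of these 8 is on the epithelial lists, and 0 of the 25 probe sets within 1.0 of Krt19 are. Since the lists hold only 40 of the 12053, or 0.332%, nothing is read from that 0. Icam1, an adhesion molecule of endothelium and leukocytes, read 1298 on array a, 4250 on array b and 1626 on the 7-day array. Mybpc1, a muscle myosin-binding protein gene, read 2511, 7578 and 2635. The nearest epithelial gene was Ddr1, a collagen receptor, at rank 113 with one probe set and rank 1851 with another. Dsc2 followed at rank 251, Tspan8 at 323 and Cldn12 at 376. Among the members, Cldn4 ranked 4680, Epcam 7889, Krt8 9159 and Cldn3 11987. With 3 arrays this is a description of shape, in which array a weighs as much as the others.

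Markers of other cell types that a dissected gland could carry are given as sums, none of them highest on array b, where Krt19 was. Most of these markers were not kept. Array a was at least 2-fold above both others for 59.3% of probe sets not kept, so nothing is read from which array had the highest sum. Of 5 measured mesothelium markers 2 were kept, and their summed intensity was 6291 on array a, 954 on array b and 2043 on the 7-day array, so that 0 of 5 were lower at 7 days than on array b. Msln, a defining mesothelial gene, read 59.9 on array b and 71.0 on the 7-day array. Kidney tubule markers had 1 of 10 kept and sums of 14399, 11892 and 11657, with Umod at 1494, 21.1 and 20.9. The kept one, Aqp1, a water channel also made by endothelium, read 3756, 10643 and 9497, highest on array b, and made up most of the sum there. Intestinal and airway markers had 1 of 7 kept (Vil1) and sums of 8762, 9724 and 11533, pancreatic acinar markers 0 of 6 kept and sums of 2563, 1073 and 1629, and skin keratinocyte markers 1 of 5 and sums of 7262, 1777 and 1591. Hepatocyte markers had 2 of 6 kept and sums of 6687, 2091 and 3026, and skeletal muscle markers 1 of 4 and sums of 3613, 981 and 1411. Endothelial markers, with 4 of 5 kept, had sums of 33950, 30777 and 32565, and adipocyte markers, with 1 of 5 kept (Cidea), sums of 9503, 16574 and 18792. Vil1 (8669 and 10148) and Cidea (15428 and 18241) made up most of their sums on array b and the 7-day array. Lower at 7 days than on array b were 4 of 10 kidney, 3 of 7 intestinal and airway, 1 of 6 pancreatic and 4 of 5 skin markers. So were 1 of 6 hepatocyte, 1 of 4 muscle, 1 of 5 endothelial and 2 of 5 adipocyte markers. Farthest below were Fabp4 (-2.81), Plin1 (-2.39) and Apoa1 (-2.28), none of them kept. Among all these markers Fabp4, a fatty acid carrier of fat cells, was the 1 gene with array b at least 2-fold above both others, at 95.8, 555 and 65.3, and it was not kept. No marker had an intensity of 0, since the table gives positive values throughout. The part of such cells in the Krt19 values was not tested.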

How the data were processed

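In the deposited table the authors give each probe set a linear intensity on each array, summarised from its probes. The 2% trimmed mean was 2501 on each array, so the values appear to be scaled to a common trimmed mean. The software is not given in the sources used here. Values were kept as scaled and turned into log2(intensity + 16), which shrinks differences of dim probe sets, and 57 control probe sets were left out. Symbols came from the platform annotation, updated for 20758 of 20826 probe sets of 1 symbol through Entrez identifiers in RefSeq (GRCr8, names and gene order only). A gene was represented by its kept probe set with the highest mean.

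Limma 3.58.1 in R 4.3.3 was fitted to all 3 arrays (trend, Benjamini-Hochberg adjustment, two-sided), and its code was run on simulated data. The simulated arrays shared 1 spread, taken from the differences between the 7-day array and array b (SD 0.39 over kept probe sets). They lacked the wider spread between arrays a and b (SD 1.43), so the simulation does not show what limma can detect here. Python 3.11.15 and matplotlib 3.10.9 were used. The members, lists and rules were chosen with earlier results of these data known. Named genes were the members, 12 further genes, the 4 genes of each list farthest from array b, 4 filament and contractile genes, and the 8 nearest to Krt19. F11r, Krt15, Numbl, Msln, Umod, Vil1, Cidea, Fabp4, Plin1, Apoa1, Aqp1, Krt1, Krt17, Krt23, Slc18a1 and Cyp11b1 were named after their values were seen. Alternatives were pseudocounts of 1 and 64, quantile normalisation, median centring, filters at the 75th percentile or absent, limma robust or with no trend, means over probe sets, each 1-day array left out and, added after seeing the data, a filter on array b and the 7-day array.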

Additional observations from a re-analysis of the deposited data

How the results depend on the processing

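No paired analysis was possible because the groups share only 1 replicate letter. Limma gave 0 probe sets in each setting fitted, which with a lone 7-day array and 1 residual degree of freedom says nothing about stability. Leaving out a 1-day array left no residual degrees of freedom, so limma was not run there. Krt19 at 7 days relative to array b ranged from -2.45 to -1.80 over pseudocounts and scalings. Leaving out each 1-day array gave -2.27 and -0.53 for Krt19, from 87 to 3578 probe sets at least 2-fold lower (53 with both), from 286 to 3065 at least 2-fold higher (6 with both), and 16 and 14 other epithelial genes lower (6 with both), each pair in the order without array a and without array b. Cldn3 stood at 1.50 and, without array b, at -1.96. Cldn7 relative to array b was -1.74 with a pseudocount of 1 and -0.85 with 64. The count at least 2-fold above both was 3 with quantile normalisation, 10 with centring, 389 with no filter, 2 with the filter at the 75th percentile and 18 with the filter on array b and the 7-day array. The count at least 2-fold below both was 1782 with no filter and 5 with the filter at the 75th percentile. Other epithelial genes below both numbered 2 with centring and 23 of 80 with no filter. Fewer or more probe sets pass by construction of each filter, and the cause of the other moves was not tested. Signal over background was not given, so dim values could not be told from background.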
